A study of Gallus gallus with 18 samples.

Results

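CHD1, SPIN1, NIPBL and TCF4 are 4 genes of the chicken Z chromosome whose products act on chromatin or transcription. The first 3 have a copy on W, and these genes and their W-linked copies were followed in the primitive streak of HH4 embryos (Hamburger and Hamilton stage 4, gastrulation). Members were taken as every probeset (a set of short probes read as 1 value) that the probe annotation assigns to these genes, 15 in number. To them were added 3 probesets that the annotation leaves unnamed. The study's own probe lists call 2 of them NIPBL and place them on W. They call the other CHD1 or CHD-W, with a partial match on chromosome 1, and it is counted here as unplaced. Together the members were 18 of the 38535 probesets on the array. CHD1 had 2 on Z, 3 on W and 1 unplaced, and SPIN1 had 1 on each chromosome. NIPBL had 3 on Z and 4 on W, and TCF4 had 3 on Z. Outside Z, the study's lists name only probesets that differed between the sexes on these same arrays. The sex differences of the 3 added probesets are therefore a description. No W-linked copy of TCF4 was listed in the annotation used here, so only its Z copy was compared between the sexes.

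In birds males carry ZZ and females ZW, so a Z gene has 2 copies in males and 1 in females, while a W gene is present in females only. Z and W descend from an ordinary pair of chromosomes, and the few genes that W has kept are mostly copies of Z genes, many of them regulators of chromatin, transcription or signalling. The CHD1 pair is widely used to tell the sex of birds from DNA. The question asked of these members was how the Z copy alone, and the Z copy together with its W partner, differed between the sexes.

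The samples were 9 male and 9 female White Leghorn embryos of 1 day, each hybridized to its own Affymetrix chicken array. From each embryo a square of 400 µm a side, with all germ layers, was cut at the level of 70 to 90% of the streak, after 3 h of culture according to the labels. The sex of each embryo was read by the authors from the arrays, from the W-linked gene HINTW (called PKCIW in the study), so the sex groups were themselves defined by a W transcript. Its brighter probeset had signals of 25606 to 32838 in the embryos labelled female and 5.08 to 75.1 in those labelled male. The study's methods state that some embryos had been electroporated with plasmids carrying various constructs, for example a fluorescent reporter. For the sexually dimorphic genes, the authors report no statistical difference between electroporated and control embryos within a sex, and pooled them. The labels do not tell which embryos were electroporated, so electroporation could not be set against any value below.

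Values are MAS5 signals (a linear probe intensity in arbitrary units, scaled to the same trimmed mean of 500.0 on every array), and 13776 to 15190 probesets an embryo lay at or over a signal of 130, used here as the detection level. Signals of different probesets are not comparable as amounts of RNA, and fewer cells that express a gene cannot be told apart from less RNA per cell. A probeset was tested where at least 9 of 18 embryos reached the detection level, which left 14505 probesets. Of primitive streak and mesoderm markers 8 of 11 genes passed, among them TBXT, MSGN1 and WNT3A, beside 4 of 6 node markers, 3 of 6 epiblast and neural, 2 of 4 endoderm, 3 of 5 blood and endothelium, and 2 of 3 germ cell markers. In the germ cell class DAZL stayed below the level, while DDX4 and PIWIL1 passed. Among the markers that passed, TAL1, DDX4, NOG and TBX6 lay near the level, with mean signals of 133 to 146 at their brightest probesets. None of the 29 probesets of these marker genes was called between the sexes by limma (a linear model over all probesets, p-values adjusted by Benjamini-Hochberg) or by a SAM-type permutation test, 1 had an unadjusted p under 0.05, and the ranges of summed signals in males and females overlapped in each class. Of all tested probesets 2.48% were higher in males and 0.283% in females by limma, so the lack of a call among 29 is no result about these genes. The sums varied widely within a sex, for node markers from 1248 to 8736 in females. Endoderm sums ran from 9123 to 28664 in females and from 15732 to 36665 in males. How alike the cut tissue was between embryos was not tested. Female 9 and males 5, 6 and 8 stood apart from the other 14 embryos on the main axis of a principal component analysis, which held 17.4% of the variance (scores of 22.6 to 42.1 against -25.6 to 12.3). Without these 4 embryos 4 members were called higher in males, 1 NIPBL probeset being lost, and 4 higher in females, and values without them are given below for the results they moved most.

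Of the 18 member probesets 11 passed the filter, 7 on Z and 4 on W. On Z, 5 of the 7 were higher in males at an adjusted p under 0.05 (limma) and none in females, against 2.48% of all tested probesets higher in males, 0.0635% of the autosomal ones and 56.9% of the 501 probesets whose gene lies on Z. CHD1, SPIN1 and TCF4 were represented among the 5 by each of their tested probesets, and NIPBL by 1 of 3. On W all 4 were higher in females, against 0.283% of all tested probesets and 72.2% of the 18 probesets placed on W. The NIPBL probesets among the 4 are unnamed in the annotation and so are not among those 18. They were taken from the study's lists of sex differences on these arrays. Of these 4, 3 reached the detection level in females only and so passed the filter through the sex in which they are high, so their count is a description and nothing is read from it against these shares. The share called on Z, 5 of 7, is thus not far from that of the Z chromosome as a whole. The 7 members below the filter were 2 probesets of LOC427025, 2 of TCF4, 1 each of LOC374195 and SPIN1L, and the unplaced CHD1-like probeset.

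**Figure D1:**
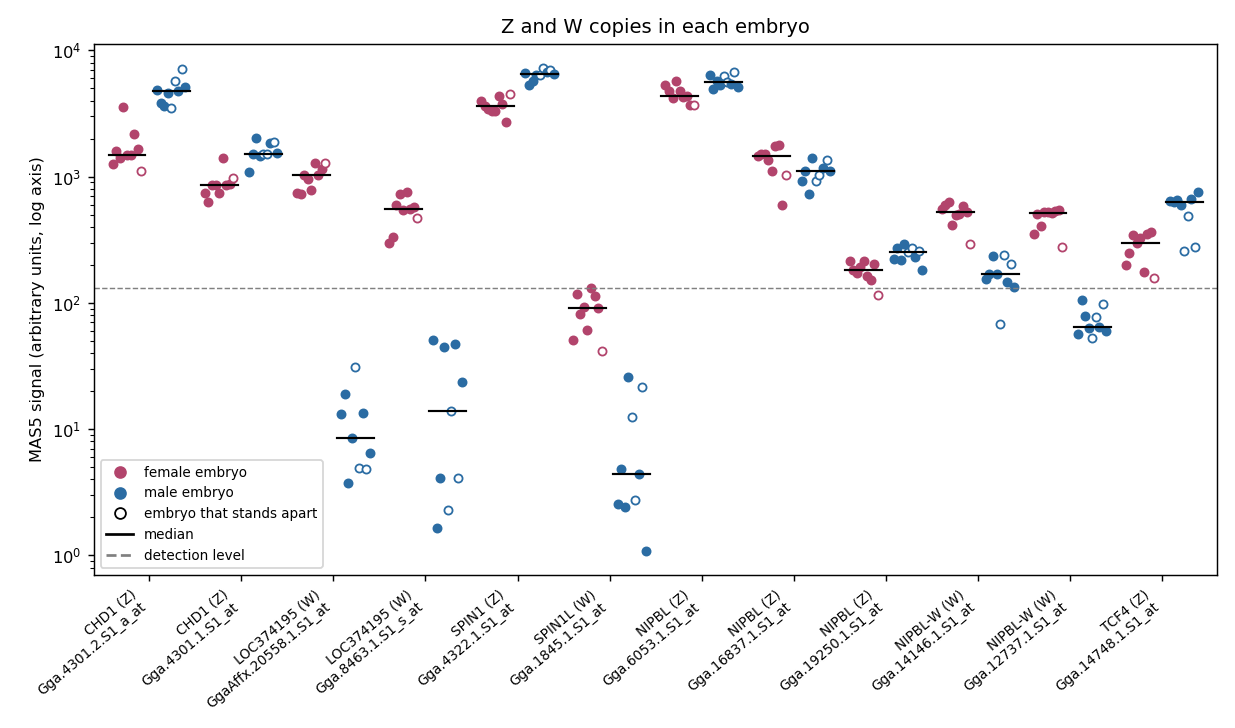
MAS5 signal (log axis, arbitrary units) of the 11 member probesets past the filter and of SPIN1L in each of 9 female and 9 male embryos, with the median of each sex as a bar, the detection level of 130 as a dashed line and the 4 embryos that stand apart as open circles; within a gene and chromosome the probesets stand from bright to dim, under the array's own names. SPIN1 shows no overlap of the sexes on Z, each W probeset shows none either, and the open circles of TCF4 lie at the lower end of their own sex.

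CHD1 encodes a chromatin remodelling enzyme that slides nucleosomes and is recruited to the start of active genes. Both of its Z probesets were higher in males. Signals of the brighter one ran from 1116 to 3565 in females (median 1481) and from 3484 to 7159.6 in males (median 4755). The sexes overlapped through a single pair of values, since female 4 had 3565, the next female 2154, and the lowest male, male 5, 3484. The M:F ratio of means was 2.75, and the log2 difference of 1.51 (SE 0.19) had an adjusted p of 2.39e-05 in limma and an exact permutation p of 8.23e-05 over all splits of the embryos. Among the 501 Z probesets a single one had a larger log2 difference. A 95% interval of 1.12 to 1.91 put it above 1, the log2 of the ratio of Z gene copies. Without the 4 embryos that stand apart the difference was 1.36 (adjusted p = 6.08e-04, limma).

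The dimmer CHD1 probeset had signals of 623 to 1399.6 in females (median 857) and 1088 to 2011 in males (median 1513). Here the overlap came from other embryos: female 6 was highest at 1399.6, while female 4 had 857, and male 1 was lowest at 1088. Its M:F ratio was 1.80 and its log2 difference 0.87 (SE 0.14, adjusted p = 3.68e-04 in limma), with a 95% interval of 0.58 to 1.15 that held 1. The log2 difference between the sexes was smaller by 0.65 in this probeset than in the brighter one (exact permutation test, 2-sided, p = 0.0193, 1 of 4 such pairs of probesets compared). Both reads of the gene thus gave the same direction and different sizes.

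LOC374195, the W-linked copy of CHD1, was measured by 3 probesets. The brightest had signals of 723 to 1287 in females (median 1022) and 3.72 to 31.3 in males (median 8.44). The next ran from 296 to 751 in females (median 548) and from 1.64 to 50.7 in males (median 14.0). In both, every female lay above the detection level and no male reached it, so the fold has a lower bound only, with the level in place of the male signals: at least 7.51-fold and at least 3.97-fold higher in females. The adjusted p was 2.38e-10 and 7.39e-06 in limma, and 2.47e-09 and 3.65e-04 without the 4 embryos that stand apart. Both probesets passed the filter through females only and the sexes were defined by a W transcript, so these p-values are a description. Among all tested probesets 0.152% had every female above every male, and nothing is read from that share here.

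The dimmest LOC374195 probeset stayed below the level in all embryos, with 62.8 to 107 in females and 2.37 to 50.5 in males. The unplaced CHD1-like probeset had 63.4 to 116 in females and 2.16 to 39.4 in males. In both the sexes did not overlap (exact permutation p = 4.11e-05, the smallest that 9 against 9 allows), which was so, with females higher, in 0.046% of the 23934 probesets below the filter. The sexes were defined by a W transcript, and the CHD1-like probeset came from a study list of sex differences, so this is a description. No fold is given where both sexes lie under the level.

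SPIN1 encodes spindlin, a chromatin reader that binds methylated histones. Its only Z probeset had signals of 2724 to 4471 in females (median 3619) and 5281 to 7228 in males (median 6504). All 9 males lay above all 9 females, as in 28.9% of Z probesets and 1.17% of all tested. The M:F ratio was 1.76 and the log2 difference 0.82 (SE 0.09, adjusted p = 8.72e-06 in limma), with a 95% interval of 0.62 to 1.02 that just held 1. The difference ranged from 0.77 to 0.86 when each embryo was left out in turn.

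SPIN1L, the W-linked copy known as SPINW, was dim. Its probeset had 41.8 to 130.1 in females (median 91.1) and 1.09 to 25.8 in males (median 4.40). The sexes did not overlap (exact permutation p = 4.11e-05), as in 0.046% of the 23934 probesets below the filter with females higher. As the sexes were defined by a W transcript, this is a description. Only female 6, at 130.1, reached the detection level and no male did. SPIN1L therefore failed the filter, and any presence in females rests on signals that are mostly below that level. The study itself calls SPINW, at this same probeset, not expressed at this stage.

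NIPBL encodes the factor that loads cohesin, the ring complex that holds sister chromatids together and folds DNA into loops. The probe annotation carries the gene as LOC427439 on Z, with 3 probesets past the filter, and these gave different values. The brightest had signals of 3672 to 5699.7 in females (median 4367) and 4901 to 6759 in males (median 5624). Its M:F ratio was 1.26 and its log2 difference 0.34 (SE 0.09), which missed the threshold with an adjusted p of 0.0640 in limma. The sexes overlapped, with 4 of 9 males above the highest female and 7 of 9 females below the lowest male. The probeset was called when female 1, female 4 or male 2 was left out (adjusted p from 0.0215 to 0.131 over the 18 fits), and without the 4 embryos that stand apart the difference was 0.24 (adjusted p = 0.441).

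The dimmest NIPBL probeset had 116 to 216 in females (median 183) and 181 to 294 in males (median 253). It was the only NIPBL probeset on Z that was called, with an M:F ratio of 1.36, a log2 difference of 0.45 (SE 0.12) and an adjusted p of 0.0436 in limma. Of the males 8 were above the highest female. The call was close to the threshold: on leaving out 1 embryo it held only without female 1, 5 or 8 or male 3 or 9 (adjusted p from 0.0174 to 0.0975 over the 18 fits), and without the 4 embryos that stand apart the difference was 0.33 (adjusted p = 0.308). Female 9, one of these 4, had the lowest signal, 116, and was the only embryo under the detection level.

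The NIPBL probeset of middle brightness had 590.2 to 1772 in females (median 1446) and 724 to 1396 in males (median 1102). Its M:F ratio of 0.804 lay on the other side of 1, but the log2 difference of -0.28 had a 95% interval of -0.66 to 0.11 and an adjusted p of 0.784 (limma), so no direction can be given. No male reached the highest female, and female 8 lay below all males. Among the 501 Z probesets 5 had a lower value. Set against the other NIPBL probesets, its log2 difference was smaller by 0.73 than that of the dimmest (exact permutation p = 0.00629) and by 0.62 than that of the brightest (exact p = 0.00564). The latter probesets differed from each other by 0.11 (exact p = 0.343). All 3 NIPBL intervals lay below 1, the log2 of the ratio of Z copies. Whether the probes of these Z probesets also read the W copy, which only females carry, was not tested.

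Among W-linked NIPBL probesets, 2 that the annotation leaves unnamed were higher in females. The dimmer one had 277 to 542 in females (median 513) and 52.3 to 104 in males (median 64.8). No male reached the detection level, so it was at least 3.48-fold higher in females (adjusted p = 2.15e-09, limma). It too passed the filter through females only, so this p-value is a description. The brighter one had 295 to 624 in females (median 527) and 68.2 to 239 in males (median 168). The sexes again did not overlap, as in 0.152% of all tested probesets with females higher. The log2 difference was -1.64 (SE 0.20, adjusted p = 2.17e-05, limma). This probeset was taken from the study's lists of sex differences on these arrays. Its p-value and lack of overlap are therefore a description as well. Here, unlike in the other W probesets, 8 of 9 males were over the detection level although males carry no W, and whether the probes also read the Z copy was not tested.

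LOC427025, which RefSeq lists as the W copy of NIPBL (synonyms NIPBLL and SCC2W), did not reach the detection level at its own probesets. One ranged from 8.07 to 90.1 in females and from 4.75 to 83.5 in males, and the other from 1.74 to 32.2 and from 1.61 to 22.5. Both stayed below the level in every embryo and the sexes overlapped. W-linked NIPBL signal thus came only from the 2 probesets named by the study's lists. On W, the RefSeq annotation of the GRCg7b assembly lists a single gene between LOC427025 and LOC374195, so the copies of NIPBL and CHD1 lie close to each other there.

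TCF4 encodes an E protein, a basic helix-loop-helix transcription factor that pairs with tissue-specific factors of the same class. Its one probeset past the filter had signals of 156 to 366 in females (median 297) and 256 to 751 in males (median 632). Males were higher with an M:F ratio of 2.02 and a log2 difference of 0.99 (SE 0.23, adjusted p = 0.0181 in limma). The 95% interval of 0.50 to 1.47 was the widest of the Z members that were called, and 29 of the Z probesets had a larger difference. Of the males 7 were above the highest female.

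The overlap in TCF4 came from males 5 and 8, both among the embryos that stand apart. Males 5, 8 and 6 had 256, 277 and 489, the lowest of their sex, and female 9 had 156, the lowest of hers. The 6 other males had 597 to 751 and the 8 other females 176 to 366. These ranges are apart because the males that made the overlap are left out, so nothing is read from it. Over all 18 embryos 28.9% of Z probesets had every male above every female, and TCF4 was not among them. That share was not counted for these 14 embryos, in which the log2 difference was 1.23 (adjusted p = 3.11e-04, limma). With all 18 embryos but no filter on low signals the call was lost (adjusted p = 0.0802), as it was with the replicate number as a block (adjusted p = 0.103). The labels number embryos within each sex and give no pairing of same-numbered males and females, so that block may be arbitrary. The 2 further TCF4 probesets were below the filter, one with 42.3 to 106 in females and 65.1 to 134 in males, and the other with 2.50 to 43.3 and 5.91 to 65.7. In both the sexes overlapped.

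**Figure D2:**
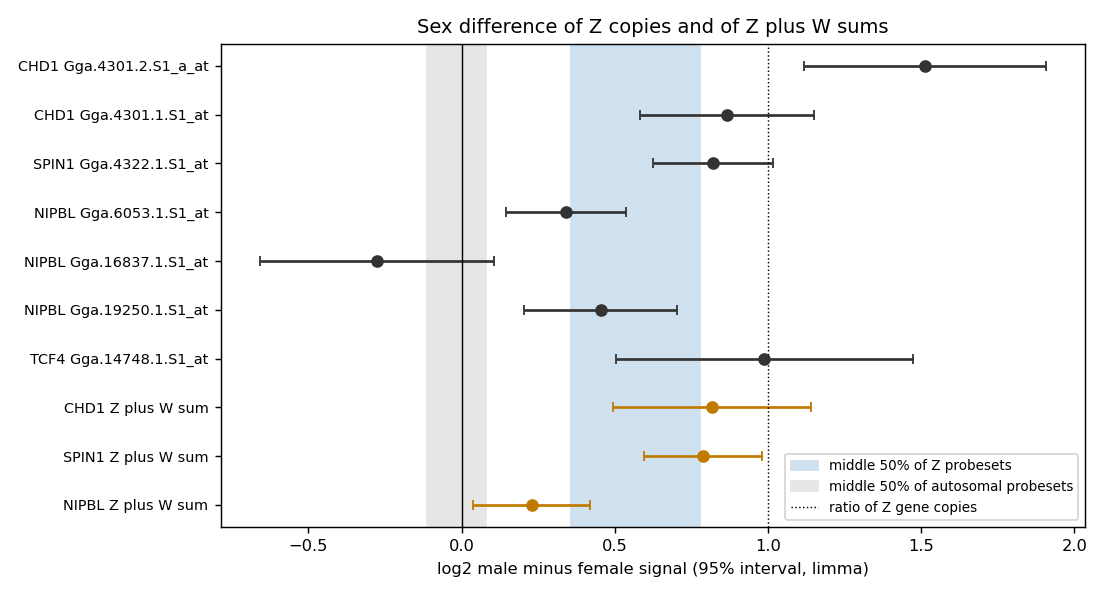
Log2 male minus female difference with its 95% interval (limma, not adjusted for the number of probesets) of the 7 Z probesets past the filter and of the 3 Z plus W sums, over the middle 50% of the Z probesets (0.36 to 0.78) and of the autosomal ones (-0.11 to 0.08), with a dotted line at 1, the log2 of the ratio of Z copies. The brighter CHD1 probeset at 1.51 lies right of the line, SPIN1 and TCF4 lie near it, and the NIPBL probesets lie left of it, 1 of them below 0.

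To set the females' W copy against the males' extra Z copy, signals of the brightest Z and the brightest W probeset were added in each embryo, and the sum was fitted as a further feature. Since 2 probesets may differ in brightness per transcript, this is a sum of signals and not of transcripts. Whether a Z probeset also reads the W copy was not tested. Where it does, its value is not of Z alone, and W signal enters the sum more than once. The CHD1 sum ran from 2000.6 to 4523 in females (median 2432) and from 3515 to 7164 in males (median 4768). Of the males 6 lay above the highest female and of the females 8 below the lowest male. The M:F ratio fell from 2.75 for Z alone to 1.75 for the sum, with a log2 difference of 0.82 (95% interval 0.49 to 1.14, adjusted p = 0.00236, limma), or 0.72 without the 4 embryos that stand apart (adjusted p = 0.0219). LOC374195 made up 37.7% ± 9.44 (SD, n = 9) of the female sum, from 21.2% in the embryo where it was least to 53.4% where it was most, and its excess in females came to 32.3% of the gap between the sexes in the Z signal.

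For SPIN1 the sum was nearly the Z signal itself, since the W probeset was dim, and how much W transcript stands behind that signal cannot be read from it. The sum had 2816 to 4513 in females (median 3737) and 5286 to 7230.4 in males (median 6505), and all males stayed above all females. The M:F ratio was 1.72 and the log2 difference 0.79 (95% interval 0.59 to 0.98, adjusted p = 1.17e-05, limma), against 1.76 and 0.82 for Z alone. SPIN1L made up 2.36% ± 0.846 (SD, n = 9) of the female sum and covered 2.82% of the Z gap. The W value used here is itself below the detection level in 8 of the 9 females.

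The NIPBL sum had 3966 to 6112 in females (median 4949) and 5070.2 to 6963 in males (median 5863), with 3 males above the highest female. The M:F ratio was 1.17 and the log2 difference 0.23 (95% interval 0.04 to 0.42). The adjusted p over all features was 0.379 (limma) and the exact permutation p, not adjusted, 0.0153. The W probeset made up 10.2% ± 2.15 (SD, n = 9) of the female sum, and its excess over males covered 28.8% of the Z gap. It was taken from the study's lists of sex differences on these arrays, so that excess is a description. Without the 4 embryos that stand apart the log2 difference was 0.13.

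**Figure D3:**
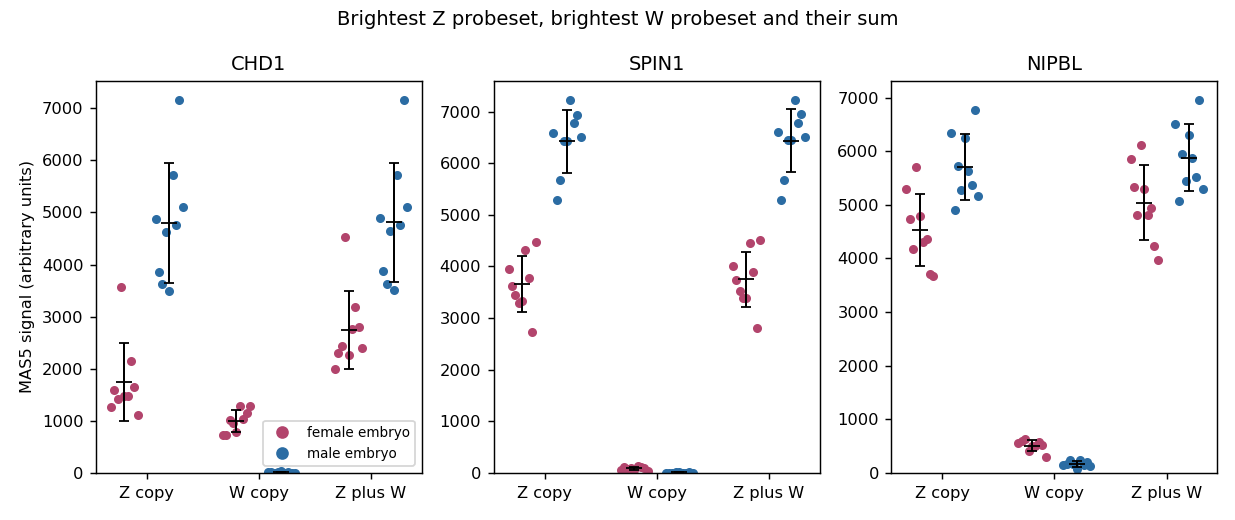
MAS5 signal (arbitrary units, linear axis from 0) of the brightest Z probeset, the brightest W probeset and their sum for CHD1, SPIN1 and NIPBL, with a point for each of 9 female and 9 male embryos and bars for mean and SD. For these brightest pairs the M:F ratio goes from 2.75 for Z to 1.75 for the sum in CHD1, from 1.76 to 1.72 in SPIN1 and from 1.26 to 1.17 in NIPBL, and the ranges of the sums overlap in CHD1 and NIPBL.

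The size and direction of the sums depended on which probesets were added. With the dimmer CHD1 probeset on Z, the log2 difference was -0.22 when the brightest LOC374195 probeset was added (adjusted p = 0.738, limma) and 0.20 when the next one was added (adjusted p = 0.792). With the brighter Z probeset and that next one it was 1.11 (adjusted p = 3.91e-04). NIPBL sums built on either of the dimmer Z probesets were higher in females in all 4 combinations, from -0.55 to -1.01, with adjusted p from 1.51e-05 to 0.0438 (limma). Those built on the brightest Z probeset had 0.23 and 0.22, and neither was called. The W term of every NIPBL sum was a probeset taken from the study's lists of sex differences on these arrays. The p-values of the NIPBL sums are therefore a description. These signals therefore do not fix whether Z and W together were equal between the sexes for CHD1 or NIPBL, while SPIN1 had 1 combination only.

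**Figure D4:**
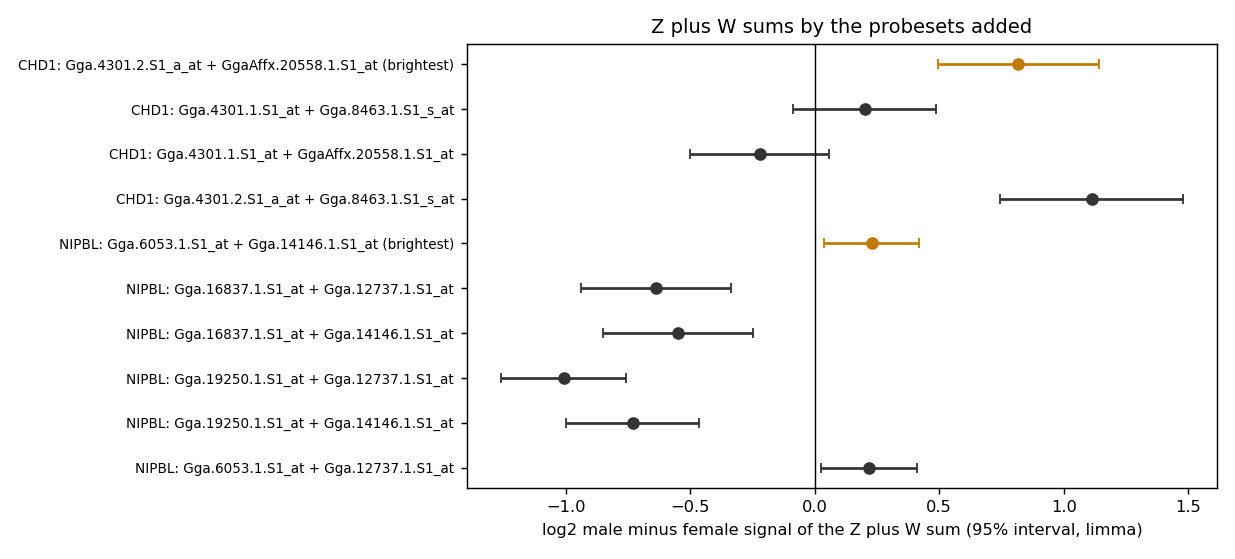
Log2 male minus female difference with its 95% interval (limma) of every combination of 1 Z and 1 W probeset past the filter for CHD1 (4 combinations) and NIPBL (6 combinations), the brightest pair in orange. CHD1 values run from -0.22 to 1.11 and NIPBL values from -1.01 to 0.23, so the sign follows the probesets chosen.

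Across the 9 females, no relation between the Z and the W signal of a pair passed the test, and for SPIN1 none could be looked for reliably, as the W signal was below the detection level in 8 of the 9. Pearson's r of log2 signals was -0.06 for CHD1 (exact permutation p = 0.901), -0.22 for SPIN1 (exact p = 0.570) and 0.20 for NIPBL (exact p = 0.616), with Spearman's rho of -0.13, -0.10 and -0.02 (exact p of 0.744, 0.810 and 0.982). After Benjamini-Hochberg adjustment over the 3 relations all Pearson p-values were 0.901 and all Spearman ones 0.982. Without the 2 females farthest from the median of the Z signal, r was -0.20, 0.29 and 0.54, with a change of sign in SPIN1. With 9 embryos such values leave wide room in both directions.

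The genes whose pattern was most like each member, members themselves left out, are given as a description, with Pearson's r over the 18 embryos after the mean of each sex was taken out, and the highest of many genes is high by the choice itself. For CHD1 they were PPIP5K2 (r = 0.74) and CCNH (0.70), both on Z, and DDX20 (0.69). PPIP5K2 is also among the 5 nearest tested genes on one side of CHD1. For SPIN1 they were ARID1B (0.88), a subunit of a chromatin remodelling complex, RCOR3 (0.83) and RIMS1 (0.81), for NIPBL MAP3K7 (0.83), BEND5 (0.80) and PDS5B (0.79), a cohesin regulator, and for TCF4 TMEM100 (0.93), PLXNA2 (0.90) and SEC14L1 (0.89). For the W copies, over the 9 females, they were RAP1GAP3 (0.97), KLHL3 (0.97) and TNFRSF9 (0.96) with LOC374195, NKTR (0.95), PIGX (0.94) and TALDO1 (0.93) with SPIN1L, and KDM5A (0.99), AMMECR1 (0.98) and FAM188A (0.97) with the brighter NIPBL probeset of W.

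The neighbours of the members on Z, taken as the 5 nearest tested genes on each side in the order of the RefSeq annotation of GRCg7b, were called higher in males in part, beside the 56.9% of all Z probesets. Around CHD1 8 of 15 probesets were called in that direction, with a median log2 difference of 0.55 and a highest value of 0.94, that of PPIP5K2, below the 1.51 of the brighter CHD1 probeset. Around NIPBL it was 6 of 10 probesets with a median of 0.61, from 0.13 for OSMR, a cytokine receptor gene, to 1.06 for CPLANE1, and all 3 NIPBL probesets were below that median. Around SPIN1 4 of 14 were called, with a median of 0.37, among them CKS2, a partner of cyclin-dependent kinases, at 0.97 (adjusted p = 2.09e-06, limma). TCF4 was the first tested gene from its end of Z, and of the 7 probesets of the 5 genes that follow it 3 were called, with a median of 0.29 and a highest value of 0.67 for TXNL1. No neighbour was called higher in females. Differences between members and neighbours were not tested.

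Of related genes outside Z and W a single probeset was called. Of autosomal probesets 0.0635% were higher in males and 0.118% in females, so the lack of a call in a list of this size is no result about its genes. None of 14 tested probesets of 6 other CHD remodellers was called in either direction, with a median log2 difference of -0.03 (all tested probesets -0.01), and none had an unadjusted p under 0.05 or was called by the SAM-type test. CHD4, of the NuRD repressor complex, had mean signals of 6572 in females and 6996 in males at its brighter probeset, and CHD7 values ran from -0.15 to -0.03. Among readers of the histone mark that spindlin binds (ING proteins, TAF3, BPTF, PYGO1) none of 12 probesets was called by limma or the SAM-type test (2 at an unadjusted p under 0.05, both with lower signals in males), with a median of -0.17. For E proteins, their ID inhibitors and partner factors none of 13 was called by either test (1 at an unadjusted p under 0.05), with a median of -0.18. The values furthest from 0 were those of ID1 (-0.65, adjusted p = 0.180, limma) and of a dim TCF12 probeset (-0.57, adjusted p = 0.626).

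Among cohesin subunits, loaders and release factors 1 of 27 probesets was called. It was STAG1, an autosomal gene for a subunit of the cohesin ring, at the brightest of its 3 tested probesets. Its signals were 526 to 1076 in females (median 723) and 343 to 627 in males (median 508). The log2 difference was -0.59 (SE 0.15, adjusted p = 0.0364, limma), with 7 of 9 females above the highest male. The call held in 7 of the 18 fits that each left out 1 embryo, those without female 3, 6 or 7 or male 1, 3, 8 or 9 (adjusted p from 0.0169 to 0.0822, log2 differences from -0.65 to -0.52), and without the 4 embryos that stand apart the difference was -0.66 (adjusted p = 0.111), an alternative run after its value was seen. The 2 other STAG1 probesets had -0.30 (adjusted p = 0.569) and -0.31 (adjusted p = 0.866) and were not called, and MAU2, the partner of NIPBL in loading cohesin, had -0.11.

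Other Z genes with a W copy were also mostly higher in males. Of their 20 tested Z probesets 16, of 11 among 15 genes, were higher in males and none in females, beside 56.9% of all Z probesets higher in males, with a median log2 difference of 0.65 beside 0.59 for all Z probesets. The largest among those called were SMAD2, a transducer of Nodal and activin signals (1.01, adjusted p = 3.82e-06, limma), UBE2R2, a ubiquitin-conjugating enzyme (0.97, adjusted p = 2.98e-06), and RASA1, a Ras GTPase activator (0.89, adjusted p = 8.64e-04). RASA1 is given at its largest value, and its other tested probesets had 0.63 (the brightest), 0.79 and 0.87. Not called were UBAP2, SMAD7, ZNF532 and SUB1. Of these SMAD7 had the largest log2 difference of the whole list, 1.40 (SE 0.44, adjusted p = 0.138, limma), at dim mean signals of 96.5 in females and 227 in males. SUB1, a transcriptional coactivator, had mean signals of 10645 in females and 10507 in males. Whether the probes of SUB1 or of the other Z genes in this list also read the W copy was not tested. The 3 NIPBL probesets, at 0.45, 0.34 and -0.28, all lay below the median of this list.

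**Figure D5:**
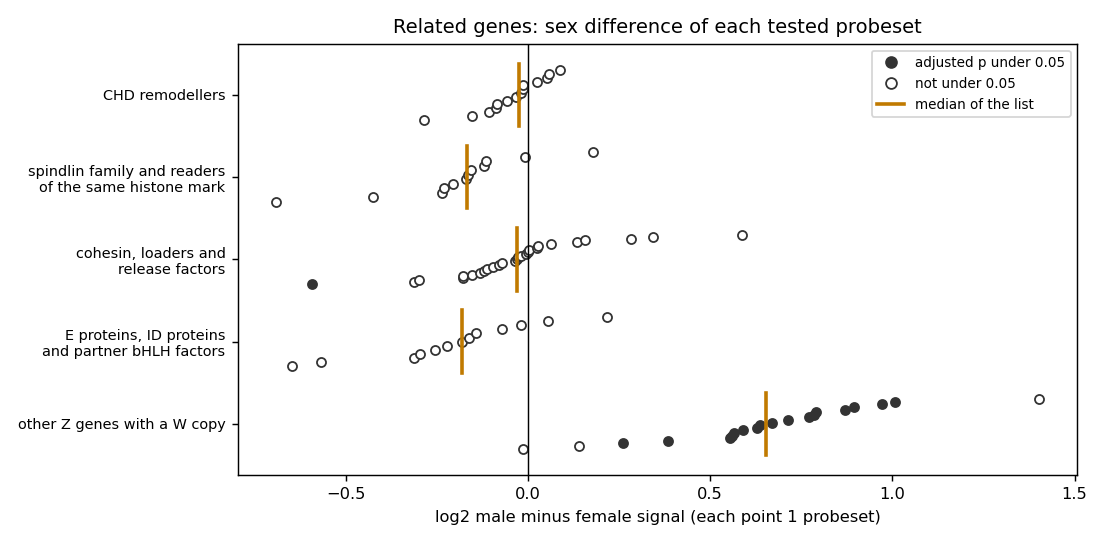
Log2 male minus female difference of each tested probeset in 5 lists of related genes, filled where the adjusted p of limma was under 0.05, with the median of each list in orange. Of the lists outside Z a single point, STAG1 at -0.59, is filled, whereas 16 of 20 points of the other Z genes with a W copy are filled around a median of 0.65.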

How the data were processed

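Total RNA of single embryos was amplified and hybridized to Affymetrix chicken arrays, 1 for each of 9 female and 9 male embryos. The authors deposited MAS5 signals, a linear intensity scaled per array, and these were used as deposited on the log2 scale with no added constant. MAS5 Present calls were not used here, and the filter of 9 embryos at a signal of 130 stands in for them. For single probesets the 2 can differ. The CHD1-like probeset was under 130 in every embryo, yet it is in the study's lists, which hold only probesets called Present in at least 9 embryos. Arrays carry no read depth, so their number limits the precision. After 96 control probesets were left out, 14505 probesets and 3 sums were fitted with limma 3.58.1 in R 4.3.3 with Benjamini-Hochberg adjustment over all of them. For single values an exact permutation test over all 48620 splits of the embryos was run (2-sided, NumPy 2.4.6, SciPy 1.17.1). A lower bound of a fold takes, for each male, the higher of his signal and the detection level.

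Genes were named by the platform annotation (27168 probesets with 1 gene, 177 with several, 11094 with none listed) through gene IDs to RefSeq symbols. NIPBL was matched as LOC427439 and LOC427025. The 3 unnamed probesets were taken by name only, from the study's lists of probesets that differed between the sexes on these arrays. All member probesets are described, with the 3 most similar genes of each brightest probeset and up to 3 called genes of each list. The neighbours on Z were added after values had been seen. Members and lists were chosen with earlier results of these data known.

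On simulated data limma found 13 of 50 probesets changed 1.3-fold, 30 of 50 at 1.5-fold, 43 of 50 at 2-fold and 50 of 50 at 4-fold, with 5 false calls. Alternatives were an added constant of 16, other filters, quantile normalization, array weights, a SAM-type test with 100 permutations, a replicate block, and embryos left out.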

Additional observations from a re-analysis of the deposited data

Results flagged for a closer look

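The highest and lowest log2 values were compared with the others in 28 sets of 9 embryos of 1 sex. Each set was for 1 member probeset or sum. Of these sets, 2 held a value that stood far off by Dixon's criterion, which flags about 1 in 20 such sets by chance. The signals given below are not log2 values, and a comparison on their scale could flag other embryos. For the NIPBL probeset of middle brightness on Z the lowest female, female 8, had a signal of 590.2, and the next female 1037. Without this embryo the log2 difference between the sexes was -0.42 in place of -0.28, with an adjusted p of 0.181 in limma. For the brighter W-linked NIPBL probeset the lowest male, male 5, had 68.2, under the detection level, and the next male 134. Male 5 is 1 of the 4 embryos that stand apart.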

How the results depend on the processing

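The counts of 5 members higher in males and 4 higher in females held with an added constant, quantile normalization, array weights and the SAM-type test. With no filter on low signals they were 3 and 7, and with the stricter filter (10 embryos over a signal of 260) 5 and 0, as none of the 4 W probesets passed it. Leaving out each embryo in turn gave 4 to 6 and 4. The log2 difference of the sums ranged from 0.74 to 0.91 for CHD1, from 0.74 to 0.82 for SPIN1 and from 0.19 to 0.26 for NIPBL. Sums of other probesets gave 1.11, 0.20 and -0.22 for CHD1, and 0.22, -0.64, -0.55, -1.01 and -0.73 for NIPBL. The mean of all Z plus the mean of all W probesets past the filter gave -0.0141 for NIPBL and 0.64 for CHD1 (adjusted p = 0.00627, limma). For SPIN1 that mean could not be formed, as no W probeset passed the filter. Among single probesets, the dimmest NIPBL probeset of Z was not called with no filter (adjusted p = 0.227) and the brightest was called with the stricter filter (adjusted p = 0.0455) and without female 1, female 4 or male 2. The cause of these changes was not tested. Same-numbered males and females did not deviate together as a set (correlations of -0.24 to 0.21, 4 of 9 over 0.1). Whether the numbers mark a shared day or batch was not tested. The fit with the replicate number as a block called 4 members higher in males and 4 in females, TCF4 being lost (adjusted p = 0.103), and 324 and 35 probesets in all in place of 360 and 41. The block left the sums at 0.82, 0.79 and 0.23.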
